A study of Mus musculus with 18 samples.

Results

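The comparison described here set the livers of mice fed a high-fat diet (HFD) against those of mice fed chow in the prevention model of the study. It rests on 6 of the 18 arrays of the series, 3 labelled Control-HFD and 3 labelled Control-Chow, chosen by their sample titles. All were livers of wild-type CD1 mice, an outbred stock, and all 6 carry the control (vehicle) label. Vehicle was given for 1 week, and the HFD, with 60% of its energy from fat, then lasted 4 weeks per the sample labels and 4-5 weeks per the series text. No age, sex or composition of the chow was used here, and nothing in the labels ties each array to an animal of its own, so every p measures the spread between these arrays. The other groups of the series received CMPF, a furan fatty acid metabolite, on HFD, or belonged to the reversal model, in which mice ate HFD for 6 weeks before 2 weeks of injections. The Y-linked gene Eif2s3y gave log2 signals of 8.48 to 9.15 on the 6 arrays, and Xist, the RNA that silences an X chromosome in females, gave 4.16 to 4.49.

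When dietary fat reaches the liver, hepatocytes take up fatty acids through transporters such as CD36, store them as triglyceride in lipid droplets, burn them in mitochondria and peroxisomes, or export them in lipoproteins. Hepatocytes also fold and secrete most plasma proteins, which pass through the endoplasmic reticulum (ER) with the help of chaperones. Many mouse liver genes differ between the sexes because the pituitary releases growth hormone in pulses in males and more evenly in females, and the transcription factor STAT5B reads that rhythm.

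The control probe sets of Gapdh and beta-actin, placed at the 3' and the 5' end of these transcripts, were read first, because their 3' minus 5' signal is known to rise as RNA loses its 5' part. For Gapdh this difference was 0.83, 1.41 and 0.48 on chow arrays 1, 2 and 3, and 2.12, 2.08 and 2.59 on HFD arrays 1, 2 and 3 (log2). For beta-actin it was 1.83, 2.55 and 1.45 on chow and 3.21, 3.27 and 3.80 on HFD. Every HFD array lay above every chow array for both transcripts, and chow 2 was the chow array nearest to the HFD group. The mean of both, called the 3' to 5' index here, was 1.43 ± 0.512 on chow and 2.84 ± 0.303 on HFD (SD, n = 3 each), a difference of 1.42 (exact two-sided permutation p = 0.1, the smallest that 3 arrays against 3 can give). Diet and index therefore cannot be told apart by group, and calls described below are also given from a fit with the index as a covariate.

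**Figure D1:**
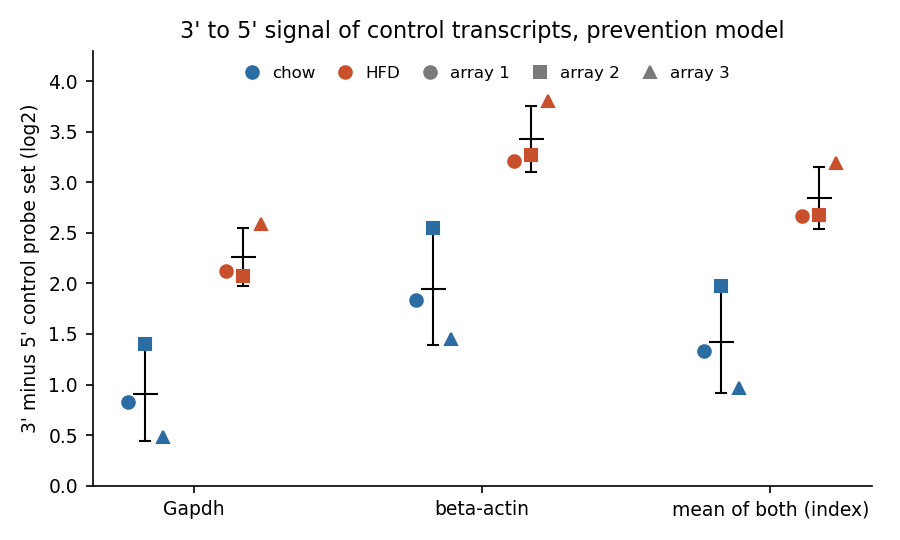
The 3' minus 5' signal (log2, vertical axis) of the control probe sets of Gapdh and beta-actin and their mean, with a symbol for each array and bars for the mean ± SD of 3 arrays. All HFD arrays lie above all chow arrays, with index values of 2.66 to 3.19 against 0.968 to 1.98.

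The female-biased cytochromes Cyp2b9 and Cyp2b13 and the fatty acid translocase Cd36 rose on HFD. Falls were found for 8 of 18 male-biased genes, 6 of 23 genes of mitochondrial fatty acid oxidation and 13 of 45 genes that carry secreted proteins through the ER. Of 13228 genes tested with limma, 737 passed an adjusted p of 0.05 (5.57%), of which 230 rose (1.74% of the genes tested) and 507 fell (3.83%). More than 2-fold changes were 43 rises and 150 falls. The 3 HFD and 3 chow arrays did not overlap for 735 of the 737, against 3864 of all genes tested (29.2%), and 3280 genes had an unadjusted p under 0.05. The median difference of all genes tested was 0.0016 (log2), with 6647 genes above 0 and 6580 below it.

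Few of these calls outlasted the loss of any 1 array or an adjustment for the index. Leaving out chow 1, chow 2 or chow 3 gave 12, 1624 and 8 genes, and leaving out HFD 1, HFD 2 or HFD 3 gave 25, 114 and 242. With the index of each array as a covariate 17 genes passed, 13 of them among the 737, and all 737 kept their sign while their median absolute change went from 0.79 to 0.51 (log2). Among the 507 genes that fell, chow 2, the chow array with the highest index, was the chow array nearest to the HFD mean for 444 (87.6%), against 7291 of all 13228 genes (55.1%). Among the 230 that rose it was nearest for 158 (68.7%). The part of RNA length in these results was not tested beyond the covariate.

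**Figure D2:**
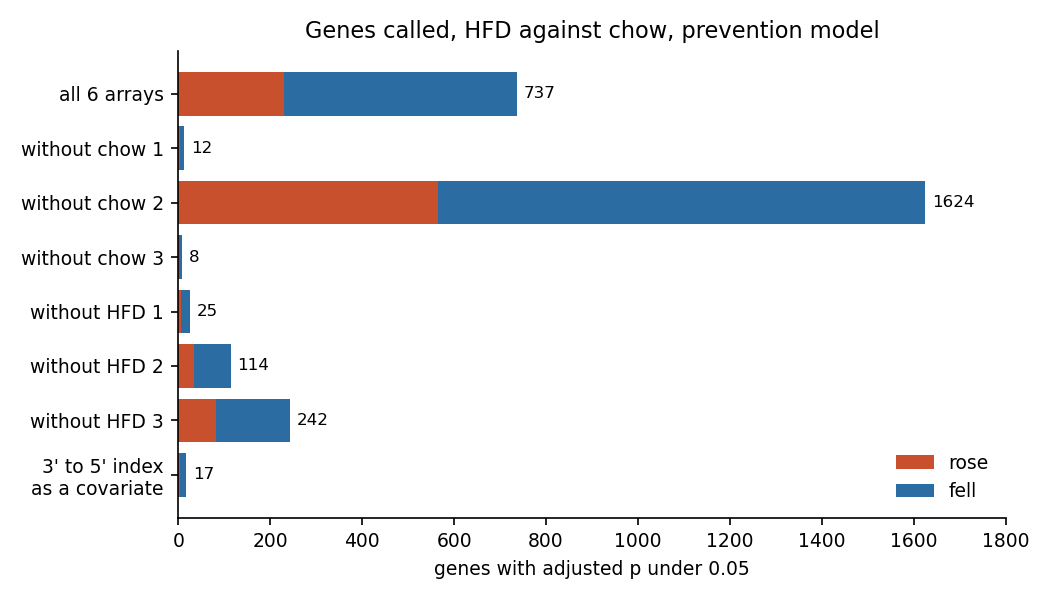
Number of genes with an adjusted p under 0.05 (horizontal axis), rises and falls stacked, with all arrays, with each of the 6 arrays left out, and with the index as a covariate. The count is 737 with all arrays, 1624 without chow 2 and 8 without chow 3.

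The largest rise was that of Cyp2b9, a cytochrome P450 whose liver transcript is female-biased in mice. Its log2 signal was 6.96, 5.93 and 5.71 on chow 1, 2 and 3 and 9.90, 10.32 and 9.42 on HFD 1, 2 and 3, so that the groups lay far apart. The rise of 3.68 ± 0.56 (log2 fold change ± SE, adjusted p = 0.0105) passed in 5 of 6 fits that each left out 1 array, and with the index as a covariate it was 4.37 (adjusted p = 0.045). Its neighbour Cyp2b13, also female-biased, read 5.17, 5.13 and 4.92 on chow and 8.55, 9.94 and 6.77 on HFD. HFD 3 was the lowest of the HFD arrays for both genes. Cyp2b13 rose by 3.35 ± 0.65 (adjusted p = 0.0178) and passed in 2 of 6 such fits. The third gene of this family on the array, Cyp2b10, the one known for induction by phenobarbital, read 5.60, 5.59 and 5.88 on chow and 5.66, 6.05 and 5.89 on HFD, groups that overlapped (0.18 ± 0.15, adjusted p = 0.491). Its other probe sets, dim with chow means of 3.35 and 2.95, were higher on HFD by 0.79 and 0.42 (log2).

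The upstream sequences of the Cyp2b pair are shown because both genes rose together and are close copies. The 250 bases before each start are RefSeq sequence of build GRCm38.p6, both on the plus strand, from the C57BL/6J reference and not from CD1 mice. Cyp2b9 is at chr7:26173159-26173408 and Cyp2b13 at chr7:26061245-26061494. Capitals mark the positions at which they differ.
Cyp2b9: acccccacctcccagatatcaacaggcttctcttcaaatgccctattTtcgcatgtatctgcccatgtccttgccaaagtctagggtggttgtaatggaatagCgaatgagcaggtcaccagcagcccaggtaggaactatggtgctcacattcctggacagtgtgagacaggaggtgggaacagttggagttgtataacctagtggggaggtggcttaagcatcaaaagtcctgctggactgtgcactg
Cyp2b13: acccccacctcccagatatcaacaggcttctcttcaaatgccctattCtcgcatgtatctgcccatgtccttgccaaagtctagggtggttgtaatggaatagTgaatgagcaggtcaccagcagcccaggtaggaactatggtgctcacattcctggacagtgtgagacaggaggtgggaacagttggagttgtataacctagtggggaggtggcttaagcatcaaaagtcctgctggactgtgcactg
The pair was identical at 248 of 250 positions and differed by T48C and C104T, with the base of Cyp2b9 first and positions counted from 1 at the 5' end of the sequence shown. In a global alignment, 186 of the 250 upstream bases of Cyp2b9 were identical in Cyp2b10. How far the probe sets of these paralogs share transcripts was not tested.

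Of 12 tested female-biased liver genes, 4 rose, none fell and 8 did not pass, with a median difference of 0.33 (log2) against 0.0016 over all genes. The genes that rose were 33.3% of the list, against 1.74% of all genes tested. Besides both cytochromes these were Cd36, described with the lipid genes, and Fmo2, a flavin monooxygenase, which read 6.44, 6.98 and 6.61 on chow and 7.64, 7.78 and 7.35 on HFD and rose by 0.91 ± 0.20 (adjusted p = 0.0261), or 0.60 as the mean of its probe sets. Hao2, a peroxisomal hydroxyacid oxidase, read 4.25, 4.85 and 3.85 on chow and 6.09, 7.38 and 6.38 on HFD. These groups did not overlap, yet the difference of 2.30 ± 0.68 did not pass (adjusted p = 0.0618). Cux2, a female-specific liver repressor, read 5.93 to 6.10 on chow and 5.96 to 6.28 on HFD, overlapping groups. Between 0 and 5 genes of the list rose in the fits that left out 1 array, and 1 rose with the index as a covariate.

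All 18 tested male-biased liver genes were lower on HFD in the mean, with a median of -0.77 (log2). Of these, 8 fell (44.4%, against 3.83% of all genes tested) and 10 did not pass. Ugt2b38, a glucuronosyltransferase, read 7.28, 8.29 and 8.38 on chow and 4.92, 5.22 and 4.92 on HFD. It fell by 2.97 ± 0.43 (adjusted p = 0.00931), passed in 5 of 6 fits with 1 array left out, and gave -3.32 with the index as a covariate (adjusted p = 0.045). C6, a component of the complement membrane attack complex, read 10.09, 9.37 and 9.87 on chow and 7.94, 7.94 and 7.99 on HFD. The HFD arrays of C6 were within 0.1 of each other and well under every chow array. Its difference of -1.82 ± 0.28 (adjusted p = 0.0105) passed in 4 of 6 such fits.

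Hsd3b5, a male-specific steroid dehydrogenase, read 12.25, 11.88 and 11.68 on chow and 9.57, 9.76 and 11.14 on HFD, with HFD 3 near the chow group, and fell by 1.78 ± 0.43 (adjusted p = 0.0331). The same array was the highest of the HFD group for Cyp7b1, the oxysterol 7-alpha-hydroxylase, at 11.90 against 10.74 and 10.72, and for C8b, another membrane attack component, at 9.98 against 9.20 and 9.45. Cyp7b1 fell by 1.40 ± 0.37 (adjusted p = 0.0417) and C8b by 1.28 ± 0.25 (0.0178). The other falls were those of Serpina12, the adipokine vaspin (-1.88), Slco1a1, an organic anion transporter (-1.19), and Ugt2b1 (-0.97), with adjusted p of 0.0294, 0.015 and 0.0215. As the mean of its probe sets Serpina12 gave -1.05 and did not pass (adjusted p = 0.067). Between 0 and 8 members fell in the fits with 1 array left out, and 5 fell with the index as a covariate, when the list's median was -1.06.

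Genes of growth hormone signalling itself showed 1 fall in 12 (8.33%, against 3.83% of all genes tested), which is a single gene. Igf1, the hormone that growth hormone induces in hepatocytes, read 12.42, 12.24 and 12.66 on chow and 11.64, 11.82 and 11.61 on HFD, groups that did not overlap. It fell by 0.75 ± 0.18 (adjusted p = 0.0331), a call that 1 of 6 fits with an array left out kept, and gave -0.50 with the index as a covariate (adjusted p = 0.339). Bcl6, a transcriptional repressor, read 5.93, 6.86 and 5.56 on chow and 6.40, 8.02 and 9.69 on HFD. Its groups overlapped, HFD 3 stood highest, and the difference of 1.92 ± 0.98 did not pass (adjusted p = 0.242). Socs2, a STAT5 target that damps the receptor, read 9.83, 9.66 and 9.43 on chow and 9.09, 8.23 and 8.35 on HFD without overlap. Its difference of -1.09 ± 0.75 did not pass (adjusted p = 0.399). Ghr, the growth hormone receptor, read 12.56 to 12.74 on chow and 12.45 to 12.72 on HFD and overlapped with its brightest probe set. Its other probe sets gave -0.61 and -0.93.

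**Figure D3:**
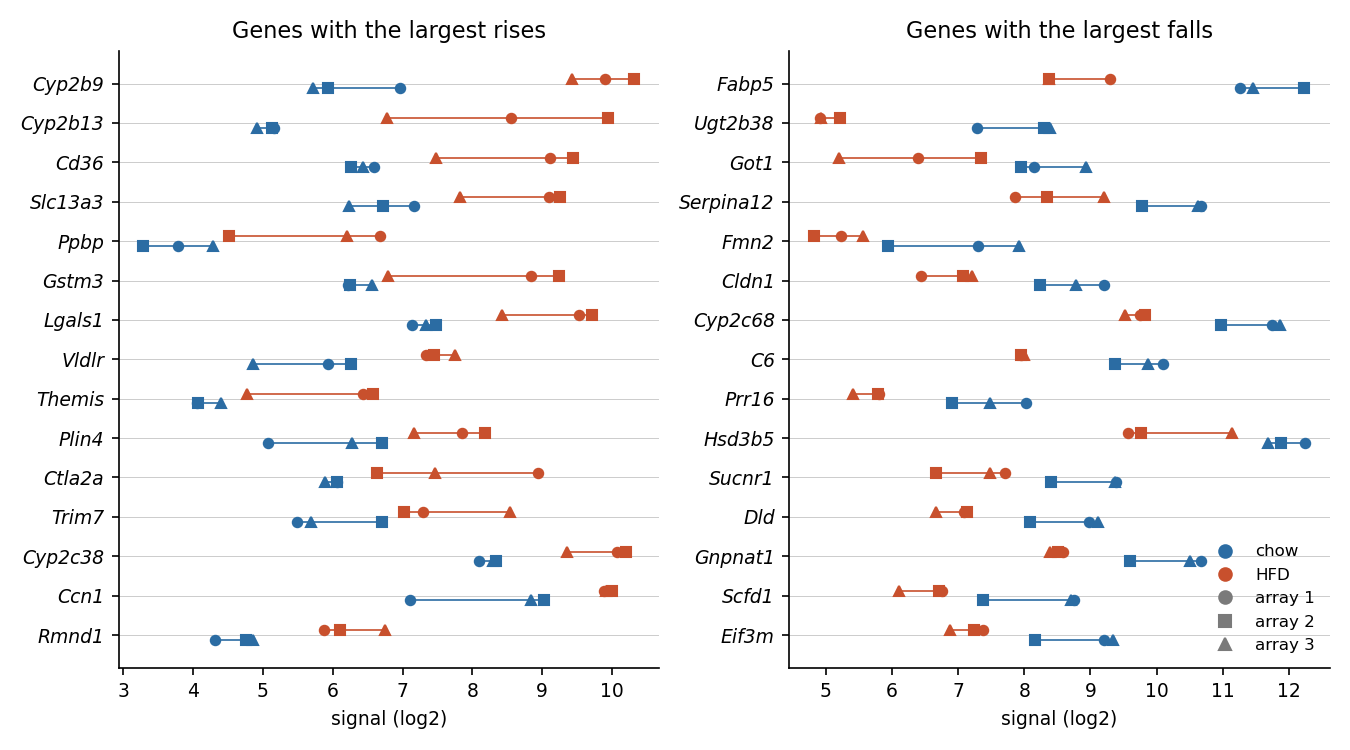
Log2 signal (horizontal axis) on each of the 6 arrays for the 15 genes with the largest rises and the 15 with the largest falls among those past the threshold whose groups do not overlap, with lines for each group's range. HFD array 3 is the lowest HFD array for Cyp2b9, Cyp2b13, Cd36 and Gstm3.

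Of 18 tested genes of fatty acid and lipoprotein uptake, 3 rose and 2 fell (27.8% called, against 5.57% of all genes tested). Cd36, the membrane fatty acid translocase, read 6.60, 6.27 and 6.44 on chow and 9.11, 9.45 and 7.48 on HFD, with HFD 3 nearest to chow. It rose by 2.25 ± 0.51 (adjusted p = 0.0291), and all 3 of its probe sets were higher on HFD, by 1.60 to 2.25 (log2). Vldlr, which binds very low density lipoprotein at the cell surface, read 5.93, 6.26 and 4.86 on chow and 7.33, 7.45 and 7.75 on HFD and rose by 1.83 ± 0.49 (adjusted p = 0.0449). Slc27a4, a fatty acid transport protein, read 6.68, 7.36 and 6.81 on chow and 7.88, 7.90 and 7.73 on HFD and rose by 0.89 ± 0.15 (0.0121). Calls of Cd36, Vldlr and Slc27a4 were kept in 2, 1 and 3 of the 6 fits that left out an array. None of the 3 passed with the index as a covariate, where they gave 3.08, 1.40 and 0.69 (adjusted p = 0.0504, 0.366 and 0.135). Vldlr gave 0.93 as the mean of its probe sets and did not pass (adjusted p = 0.0598).

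Fabp5, a fatty acid binding protein, moved the other way. It read 11.25, 12.23 and 11.46 on chow and 9.30, 8.37 and 8.37 on HFD, a gap of nearly 2 log2 units between the closest arrays. Its difference of -2.97 ± 0.66 (adjusted p = 0.0262) was matched by its other probe set at -4.38, and with the index as a covariate it was -4.23 (adjusted p = 0.045). Its call was kept in 1 of the 6 fits with an array left out. Slc27a2, another transport protein of the same family as Slc27a4, fell by 0.43 ± 0.10 (adjusted p = 0.0293), while Fabp1, the abundant liver form, read 14.13 to 14.22 on chow and 13.85 to 14.00 on HFD (-0.26 ± 0.12, adjusted p = 0.195).

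Storage genes gave 1 rise in 19 for lipid droplets and 1 rise in 16 for triglyceride synthesis. Plin4, a lipid droplet coat protein, read 5.08, 6.70 and 6.28 on chow and 7.84, 8.18 and 7.16 on HFD and rose by 1.71 ± 0.39 (adjusted p = 0.0293). Mogat1, which makes diacylglycerol from monoacylglycerol, read 4.40, 4.80 and 4.72 on chow and 6.52, 6.56 and 5.61 on HFD and rose by 1.59 ± 0.29 (0.0157). Neither group pair overlapped, which holds for 735 of the 737 called genes. Both list shares rest on a single gene and were near the 5.57% of all genes tested that passed in either direction (1.74% rose). With the index as a covariate neither gene passed (Plin4 1.77, adjusted p = 0.175, and Mogat1 1.81, 0.0715). Plin2, the main droplet coat of hepatocytes, read 12.60, 12.97 and 12.52 on chow and 12.91, 12.93 and 12.59 on HFD and overlapped. Dgat2, which completes triglyceride, read 11.69 to 12.03 on chow and 12.23 to 12.31 on HFD (0.40 ± 0.11, adjusted p = 0.0574), but its other probe set gave -0.36.

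None of 20 tested genes of de novo lipogenesis passed in limma, and 2 were higher and 3 lower without overlap between the groups. Groups did not overlap for 29.2% of all genes tested, so this count is near that share. None of 19 genes of cholesterol synthesis and uptake passed either. In each list 5 genes had an unadjusted p under 0.05, as had 3280 of all 13228 genes tested. Scd1, the stearoyl-CoA desaturase, read 12.54, 12 and 12.48 on chow and 13.08, 12.40 and 11.23 on HFD, the HFD arrays being spread on both sides of the chow group. Thrsp, a lipogenic cofactor, read 9.59, 9.55 and 10.48 on chow and 10.87, 11.33 and 10.85 on HFD. Its groups did not overlap, and its difference of 1.14 ± 0.40 had an adjusted p of 0.0978.

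Elongation and desaturation of polyunsaturated fatty acids gave 3 falls in 17 genes (17.6%, against 3.83% of all genes tested). Elovl2, the elongase of long polyunsaturated chains, read 11.81, 11.37 and 11.81 on chow and 10.34, 10.49 and 10.02 on HFD. Its difference of -1.39 ± 0.18 (adjusted p = 0.00628) passed in all 6 fits with 1 array left out, and with the index as a covariate it was -1.07 (adjusted p = 0.045). Ephx2, the soluble epoxide hydrolase, read 12.86 to 12.92 on chow and 12.12 to 12.45 on HFD and fell by 0.64 ± 0.11 (0.0121). Fads2, the delta-6 desaturase, fell by 0.49 ± 0.12 (0.0324) but gave -0.28 as the mean of its probe sets (adjusted p = 0.248), and Fads1, the delta-5 desaturase, overlapped between the groups (-0.07 ± 0.22, adjusted p = 0.879).

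Of 23 tested genes of mitochondrial fatty acid oxidation, 6 fell, none rose and 17 did not pass, with a median of -0.29 (log2). The falls were 26.1% of the list, against 3.83% of all genes tested. Cpt1a, the carnitine palmitoyltransferase that admits fatty acids to mitochondria, read 11.57, 11.21 and 11.52 on chow and 10.29, 10.74 and 10.40 on HFD and passed in 4 of 6 fits with 1 array left out (-0.96 ± 0.14, adjusted p = 0.00931). The subunits of the trifunctional protein, which carries out the last steps on long chains, fell together. Hadha read 9.70, 9.72 and 9.76 on chow and 8.79, 8.92 and 8.94 on HFD, a difference of -0.85 ± 0.15 (adjusted p = 0.0149). Hadhb read 11.92, 11.77 and 12.06 on chow and 10.50, 10.77 and 10.62 on HFD, a difference of -1.29 ± 0.20 (0.0113). Chow and HFD arrays were apart for both subunits, as they were for 735 of the 737 called genes.

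The other falls were those of Acad11, an acyl-CoA dehydrogenase (-0.79), and of Etfdh (-1.09) and Etfa (-0.98), which pass electrons from the dehydrogenases to ubiquinone, with adjusted p of 0.0121, 0.0262 and 0.039. Probe sets disagreed in size for Cpt1a, whose other probe sets gave -0.30 and -0.23, and for Hadhb, whose others gave -0.48 and 0.66 and which did not pass as their mean (adjusted p = 0.0806). Acadm, the medium-chain dehydrogenase, read 12.73, 12.40 and 12.87 on chow and 11.88, 12.16 and 12.08 on HFD without overlap (-0.62 ± 0.26, adjusted p = 0.152). Pdk4, the kinase that shuts pyruvate out of oxidation, read 5.65, 6.18 and 6.09 on chow and 7.41, 7.47 and 6.69 on HFD without overlap (1.22 ± 0.41, adjusted p = 0.0881). Ppara, the nuclear receptor that drives these enzymes, overlapped (-0.21 ± 0.21, adjusted p = 0.591). Between 0 and 6 members of the list fell with 1 array left out, and none with the index as a covariate, when the median was -0.15.

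Peroxisomal oxidation showed 3 falls in 21 genes (14.3%, against 3.83% of all genes tested). Ehhadh, the peroxisomal bifunctional enzyme, read 12.65, 12.73 and 12.46 on chow and 11.07, 11.02 and 11.44 on HFD and fell by 1.43 ± 0.30 (adjusted p = 0.0218). Hao1, the glycolate oxidase, fell by 0.88 ± 0.14 (0.0113) and Crot, the carnitine octanoyltransferase, by 1.08 ± 0.25 (0.0298), with -0.66 as the mean of its probe sets. None of the 3 passed with the index as a covariate. Cyp4a14, a fatty acid omega-hydroxylase, read 12.98, 13.48 and 12.70 on chow and 12.29, 12.64 and 10.68 on HFD, groups apart by less than 0.1, and did not pass (-1.18 ± 0.67, adjusted p = 0.293).

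Slc16a1, the monocarboxylate transporter MCT1 that moves lactate and ketone bodies across the cell membrane, gave one of the steadiest differences. Its log2 signal was 9.90, 9.46 and 9.87 on chow and 8.24, 8.37 and 8.14 on HFD, so that the groups were more than 1 log2 unit apart. It fell by 1.49 ± 0.19 (adjusted p = 0.00628), passed with each of the 6 arrays left out, and gave -1.19 with the index as a covariate (adjusted p = 0.045). The other 3 tested genes of ketone body metabolism did not pass, among them Bdh1, the hydroxybutyrate dehydrogenase (-0.67 ± 0.25, adjusted p = 0.117).

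In all, 6 genes passed in each of the 6 fits with 1 array left out: Slc16a1, Elovl2, Pnpla7, Gtf2b, Cdv3 and Limd2. Pnpla7, a lysophospholipase of the ER and lipid droplets, read 9.95, 9.71 and 10.002 on chow and 8.63, 8.80 and 8.43 on HFD, a difference of -1.26 ± 0.16 (adjusted p = 0.00628). Gtf2b, the general transcription factor IIB, read 9.08, 8.46 and 8.99 on chow and 7.65, 7.70 and 7.55 on HFD, a difference of -1.21 ± 0.16 (0.00628). The one gene of the 6 that rose was Limd2, a LIM domain protein, which read 9.23, 8.98 and 8.92 on chow and 10.40, 10.06 and 10.41 on HFD, a rise of 1.25 ± 0.16 (0.00628). For Cdv3 the difference of -0.86 ± 0.12 (adjusted p = 0.00689) shrank to -0.29 as the mean of its probe sets. All but Limd2 (adjusted p = 0.0504) also passed with the index as a covariate. None of these 6 passed with chow 1 and chow 3 left out together, a fit that called 2 genes in all.

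Bile acid genes gave 5 falls and 1 rise in 25 (24% called, against 5.57% of all genes tested). Slc10a1, the transporter NTCP that takes bile acids up from blood, read 12.17, 11.71 and 12.34 on chow and 10.76, 11.15 and 10.85 on HFD, and its difference of -1.16 ± 0.18 (adjusted p = 0.0113) was matched by its other probe set at -1.89. Klb, the co-receptor of FGF15 and FGF21, read 7.92, 7.84 and 8.04 on chow and 6.82, 6.88 and 6.84 on HFD and fell by 1.08 ± 0.18 (0.0119). The spread within each group of Klb was a small part of the gap between them. Amacr, a racemase of side chain oxidation, fell by 0.98 ± 0.26 (0.0428), while Abcc3, an exporter of the sinusoidal membrane, rose by 0.63 ± 0.17 (0.0452). Cyp7a1, the rate-limiting enzyme of the classical pathway, read 10.64, 10.69 and 11.11 on chow and 10.46, 10.77 and 10.75 on HFD and overlapped. Its other, dimmer probe set gave -1.30. With the index as a covariate Cyp7b1 alone of the 6 passed, while Slc10a1 gave -0.83 (adjusted p = 0.108), Klb -0.90 (0.115) and Amacr -0.37 (0.461).

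Lipoprotein assembly gave 1 fall in 22 genes (4.55%), near the 3.83% of all genes tested that fell. Mttp, the triglyceride transfer protein that loads apolipoprotein B, read 10.89, 10.85 and 10.76 on chow and 10.15, 10.29 and 10.23 on HFD and fell by 0.61 ± 0.09 (adjusted p = 0.0105). Apob itself did not pass (-0.35 ± 0.17, adjusted p = 0.222). Phospholipid and one-carbon metabolism gave 4 falls and 1 rise in 20 (25% called, against 5.57% of all genes tested). Pcyt1a (-1.23) and Pemt (-0.94) serve the 2 routes to phosphatidylcholine, Chdh (-0.56) oxidises choline, Cth (-0.89) makes cysteine, and Mthfd1, a folate enzyme, rose by 0.43. Adjusted p of these 5 genes lay between 0.0219 and 0.045, and each passed in 1 of 6 fits with an array left out. As the mean of its probe sets Mthfd1 gave 0.07 (adjusted p = 0.656) and Pcyt1a -0.58 (0.0712), neither of which passed. With the index as a covariate none of the 5 passed, with Pemt at -0.39 and Pcyt1a at -0.57, nor did Mttp (-0.63, adjusted p = 0.0573).

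Gluconeogenesis and glycogen genes gave 2 falls in 21 (9.52%, against 3.83% of all genes tested). Pck1, the cytosolic PEP carboxykinase, read 11.71, 11.91 and 12.45 on chow and 10.76, 10.95 and 11.01 on HFD and fell by 1.11 ± 0.28 (adjusted p = 0.0393). Got1, the cytosolic aspartate aminotransferase, read 8.14, 7.95 and 8.94 on chow and 6.39, 7.34 and 5.19 on HFD and fell by 2.04 ± 0.47 (0.0294). G6pc, the glucose-6-phosphatase, read 10.13, 11.47 and 11.22 on chow and 9.26, 10.20 and 10.02 on HFD, which overlapped (-1.12 ± 0.39, adjusted p = 0.1). Among 23 genes of insulin and IGF signalling, Igf1 and Grb14, an inhibitor of the insulin receptor (-1.17 ± 0.31, adjusted p = 0.0413), fell (8.70% of the list). Irs2 (-0.29, adjusted p = 0.615) and Insr (-0.27, 0.328) did not pass. Igfbp2 read 12.38, 11.79 and 11.96 on chow and 10.89, 9.47 and 11.19 on HFD without overlap (-1.53 ± 0.43, adjusted p = 0.0512). No gene of these 2 lists passed with the index as a covariate, where Pck1 gave -0.59 (adjusted p = 0.425) and Got1 -1.54 (0.294).

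The urea cycle and amino acid list of 37 genes split evenly, with 3 rises and 3 falls (16.2% called, against 5.57% of all genes tested). Prodh, the proline dehydrogenase, read 9.96, 10.50 and 9.67 on chow and 11.30, 11.46 and 11.66 on HFD, and its rise of 1.43 ± 0.24 (adjusted p = 0.0121) passed in 4 of 6 fits with an array left out. Gpt2, the mitochondrial alanine aminotransferase (0.81), and Bckdha, a subunit of the branched-chain ketoacid dehydrogenase (0.73), rose as well, with adjusted p of 0.0297 and 0.0374. Beside Got1, Otc, the ornithine transcarbamylase (-0.86), and Tdo2, the tryptophan dioxygenase (-1.18), fell, with adjusted p of 0.0293 and 0.0324. Chow 2 was the highest chow array for the 3 genes that rose and the lowest for Otc and Tdo2. The other probe sets of Gpt2 gave -0.47, 0.13 and -0.14, and their mean with the one used was 0.08 (adjusted p = 0.833). Tdo2 gave -0.53 as such a mean (0.0653) and Otc -0.55 (0.0405). No gene of the list passed with the index as a covariate, and Prodh gave 0.97 (adjusted p = 0.115).

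The citric acid cycle list of 17 genes held 4 falls and 1 rise (29.4% called, against 5.57% of all genes tested). Dld, the shared dihydrolipoamide dehydrogenase subunit, read 8.98, 8.09 and 9.11 on chow and 7.09, 7.14 and 6.67 on HFD and fell by 1.76 ± 0.43 (adjusted p = 0.033). Idh3a (-1.03), Pdhx (-1.03) and Fh1 (-0.89) fell, and Mdh2, the mitochondrial malate dehydrogenase, rose by 0.48. The change of Dld was -0.57 with the index as a covariate (adjusted p = 0.115). Of 33 subunits of respiratory complex I, Ndufc1 (0.49) and Ndufb7 (0.88) rose and none fell. Of 39 subunits of the other complexes, Atp5b (-0.62) and Sdhd (-1.26) fell and none rose. Both shares, 6.06% and 5.13%, were near the 5.57% of all genes tested that passed in either direction. By direction, 1.74% of all genes tested rose and 3.83% fell. As means of their probe sets, Idh3a (-0.42), Mdh2 (0.26), Ndufc1 (0.13), Ndufb7 (0.54) and Sdhd (-0.60) did not pass. No gene of these 3 lists passed with the index as a covariate.

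The secretory pathway held the largest group of falls among the lists. Of 45 tested genes of ER translocation, glycosylation and export, 13 fell and none rose. The falls were 28.9% of the list, against 3.83% of all genes tested. In this list 41 genes had a mean below chow, and the median was -0.51 (log2). Sec24d, a cargo adaptor of the COPII coat, read 9.83, 8.79 and 10.04 on chow and 7.9975, 8.36 and 8.10 on HFD and fell by 1.40 ± 0.27 (adjusted p = 0.0168). Lman1, the lectin that ferries coagulation factors V and VIII out of the ER, read 10.75, 10.31 and 10.86 on chow and 9.51, 9.79 and 9.84 on HFD and fell by 0.92 ± 0.17 (0.0157). Spcs2, a signal peptidase subunit, read 9.97, 9.29 and 10.12 on chow and 8.61, 8.76 and 8.56 on HFD and fell by 1.15 ± 0.24 (0.0219). For each of these 3 genes the groups were apart, as for 735 of the 737 called genes, and chow 2 was the lowest chow array.

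Further falls in this list were those of the cargo receptor Tmed7 (-1.42), Sec24a (-0.78) and Sec23b (-0.90) of the COPII coat, Copa of the COPI coat (-0.52) and Ddost of the oligosaccharyltransferase (-0.45). Ssr2 (-0.88), Ssr3 (-0.77) and Ssr4 (-1.06) of the translocon-associated complex, Spcs1 of the signal peptidase (-0.83) and Srp9 of the signal recognition particle (-0.54) made up the rest. Sec61a1, the channel through which the chains enter, read 10.58 to 10.83 on chow and 10.34 to 10.47 on HFD (-0.28 ± 0.17, adjusted p = 0.328). Its other probe sets gave -1.35, -1.22, -0.46, -0.40 and 0.35. Probe sets of Sec24a and Copa disagreed, since their other probe sets were 1.02 and 0.34 higher on HFD, and neither passed as a mean of probe sets (adjusted p = 0.695 and 0.827). Lman1 gave -0.48 as such a mean. The number of falls in the list was 0 to 23 with 1 array left out and 0 with the index as a covariate, when the median was -0.33.

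Of 30 tested ER chaperones and genes of the unfolded protein response, 4 fell, none rose, and the median was -0.45 (log2). The falls were 13.3% of the list, against 3.83% of all genes tested. Hspa5, the chaperone BiP, read 12.96, 12.86 and 13.30 on chow and 12.43, 12.03 and 12.10 on HFD and fell by 0.86 ± 0.23 (adjusted p = 0.0473). Manf, a secreted ER stress factor, read 10.53, 9.98 and 10.91 on chow and 9.39, 8.76 and 8.54 on HFD and fell by 1.58 ± 0.32 (0.0179). The disulfide isomerases Pdia6, at 10.37, 10.40 and 10.59 on chow and 9.33, 9.46 and 8.98 on HFD, and Pdia4, at 9.78, 9.34 and 9.91 against 8.65, 8.44 and 8.46, fell by 1.19 ± 0.31 and 1.16 ± 0.30 (adjusted p = 0.041 and 0.0417). None of the 4 overlapped between groups, which holds for 735 of the 737 called genes. Each of the 4 passed in 1 of 6 fits with an array left out. Hspa5 and Pdia6 gave -0.61 and -0.76 as means of their probe sets and did not pass (adjusted p = 0.0706 and 0.122).

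Several chaperones lay lower without passing. Creld2 read 9.46, 9.38 and 10.37 on chow and 8.65, 7.46 and 7.99 on HFD (-1.70 ± 0.59, adjusted p = 0.0996), and Sdf2l1 read 7.96, 7.42 and 8.57 against 6.99, 6.89 and 5.87 (-1.40 ± 0.42, 0.0665). Hsp90b1, the chaperone GRP94, read 12.04 to 12.08 on chow and 11.23 to 11.84 on HFD (-0.60 ± 0.17, 0.0596). Calr, calreticulin, read 11.94, 12.39 and 12.05 on chow and 12.37, 12.35 and 12.15 on HFD, overlapping and not lower. Xbp1, a transcription factor of this response, gave -0.31 ± 0.19 (0.337) with its brightest probe set, while its others gave -1.68, -1.16 and 0.10. With the index as a covariate none of the list passed and its median was -0.64.

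Many of these chaperone genes carry the ER stress element, a sequence read by ATF6 and NF-Y, so the upstream 250 bases of the list were searched on both strands for its exact letters, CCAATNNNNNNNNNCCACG. Of 26 tested members with a RefSeq upstream window, 10 held it, against 35 of 27025 genes (0.13%), and 9 of the 10 were lower on HFD in the mean, as were 27 of all 30 tested members of the list. Of the 45 genes of translocation and export, 36 had a window and 0 held it. The windows are shown for 3 chaperones that fell, in build GRCm38.p6: Hspa5 (chr2:34771840-34772089, plus strand), Pdia6 (chr12:17266339-17266588, plus strand) and Pdia4 (chr6:47813513-47813762, minus strand). Capitals mark the element.
Hspa5: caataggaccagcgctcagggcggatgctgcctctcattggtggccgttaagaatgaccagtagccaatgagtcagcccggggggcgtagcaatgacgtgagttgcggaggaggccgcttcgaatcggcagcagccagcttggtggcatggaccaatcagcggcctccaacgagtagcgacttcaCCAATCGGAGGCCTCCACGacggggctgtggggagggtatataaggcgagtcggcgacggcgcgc
Pdia6: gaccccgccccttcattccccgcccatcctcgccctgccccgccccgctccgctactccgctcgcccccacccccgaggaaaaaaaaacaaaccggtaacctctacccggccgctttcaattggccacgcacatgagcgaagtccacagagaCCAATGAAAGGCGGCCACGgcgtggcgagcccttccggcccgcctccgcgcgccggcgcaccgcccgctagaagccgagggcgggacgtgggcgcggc
Pdia4: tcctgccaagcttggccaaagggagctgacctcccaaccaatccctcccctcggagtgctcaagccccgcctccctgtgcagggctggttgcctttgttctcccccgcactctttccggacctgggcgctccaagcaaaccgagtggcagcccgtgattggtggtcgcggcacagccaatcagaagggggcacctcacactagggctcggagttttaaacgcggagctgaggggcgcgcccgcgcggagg
The element began 65 bases before the start of Hspa5 and 98 bases before that of Pdia6, and these letters are not in the Pdia4 window. Shown for comparison are the 9 elements of the 8 genes of the list that did not pass, each read 5' to 3' on the strand that carries it, with the 5 bases at either end in capitals.
Hsp90b1, sense: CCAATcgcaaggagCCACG
Hsp90b1, antisense: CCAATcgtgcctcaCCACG
Creld2: CCAATtgaggctcgCCACG
Canx: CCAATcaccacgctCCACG
Calr: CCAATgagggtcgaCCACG
Dnajc3: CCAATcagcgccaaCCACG
Derl3: CCAATggggaagtcCCACG
Ero1b: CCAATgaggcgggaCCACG
Syvn1: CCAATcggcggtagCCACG
The differences were -0.60 for Hsp90b1, -1.70 for Creld2, -0.40 for Canx, 0.16 for Calr, -0.54 for Dnajc3, -0.19 for Derl3, -0.67 for Ero1b and -0.34 for Syvn1 (log2). A match describes the letters and says nothing on binding in these livers.

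Among proteins that pass through this pathway, 6 of 24 coagulation factors and 3 of 19 complement components fell, and none of either list rose. These shares were 25% and 15.8%, against 3.83% of all genes tested that fell. F11, coagulation factor XI, read 9.50, 9.28 and 9.60 on chow and 8.52, 7.82 and 8.65 on HFD, and its difference of -1.13 ± 0.19 (adjusted p = 0.0121) passed in 4 of 6 fits with an array left out. F5, factor V, read 11.96, 11.53 and 11.73 on chow and 10.77, 11.16 and 11.13 on HFD and fell by 0.72 ± 0.16 (0.0244). Serpind1, heparin cofactor II (-1.12), Vkorc1, the vitamin K epoxide reductase (-0.89), F13b (-0.61) and Klkb1, plasma prekallikrein (-0.50), fell with adjusted p of 0.0246 to 0.0469. F2, prothrombin, read 13.24 to 13.35 on chow and 13.12 to 13.23 on HFD (-0.12 ± 0.12, adjusted p = 0.57).

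C6 and C8b, already given with the male-biased genes, and C4bp, an inhibitor of the classical pathway (-0.60 ± 0.16, adjusted p = 0.041), were the 3 complement genes that fell. C9, the pore-forming last component, overlapped (-0.18 ± 0.19, adjusted p = 0.606). With the index as a covariate 2 complement genes and no coagulation factor fell. The acute phase list of 26 gave 1 rise, Saa4, a constitutive serum amyloid (0.71 ± 0.18, adjusted p = 0.0394), whose other probe set was 1.08 lower on HFD. This share of 3.85% is a single gene, against 1.74% of all genes tested that rose and 5.57% called in either direction. The medians were -0.23 for complement and -0.27 for coagulation. The hepatocyte list had a median of -0.21, with 7 of 9 genes negative and no call in limma (3 at an unadjusted p under 0.05), and Alb, albumin, was at 14.47 to 14.51 on chow and 14.38 to 14.45 on HFD.

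**Figure D4:**
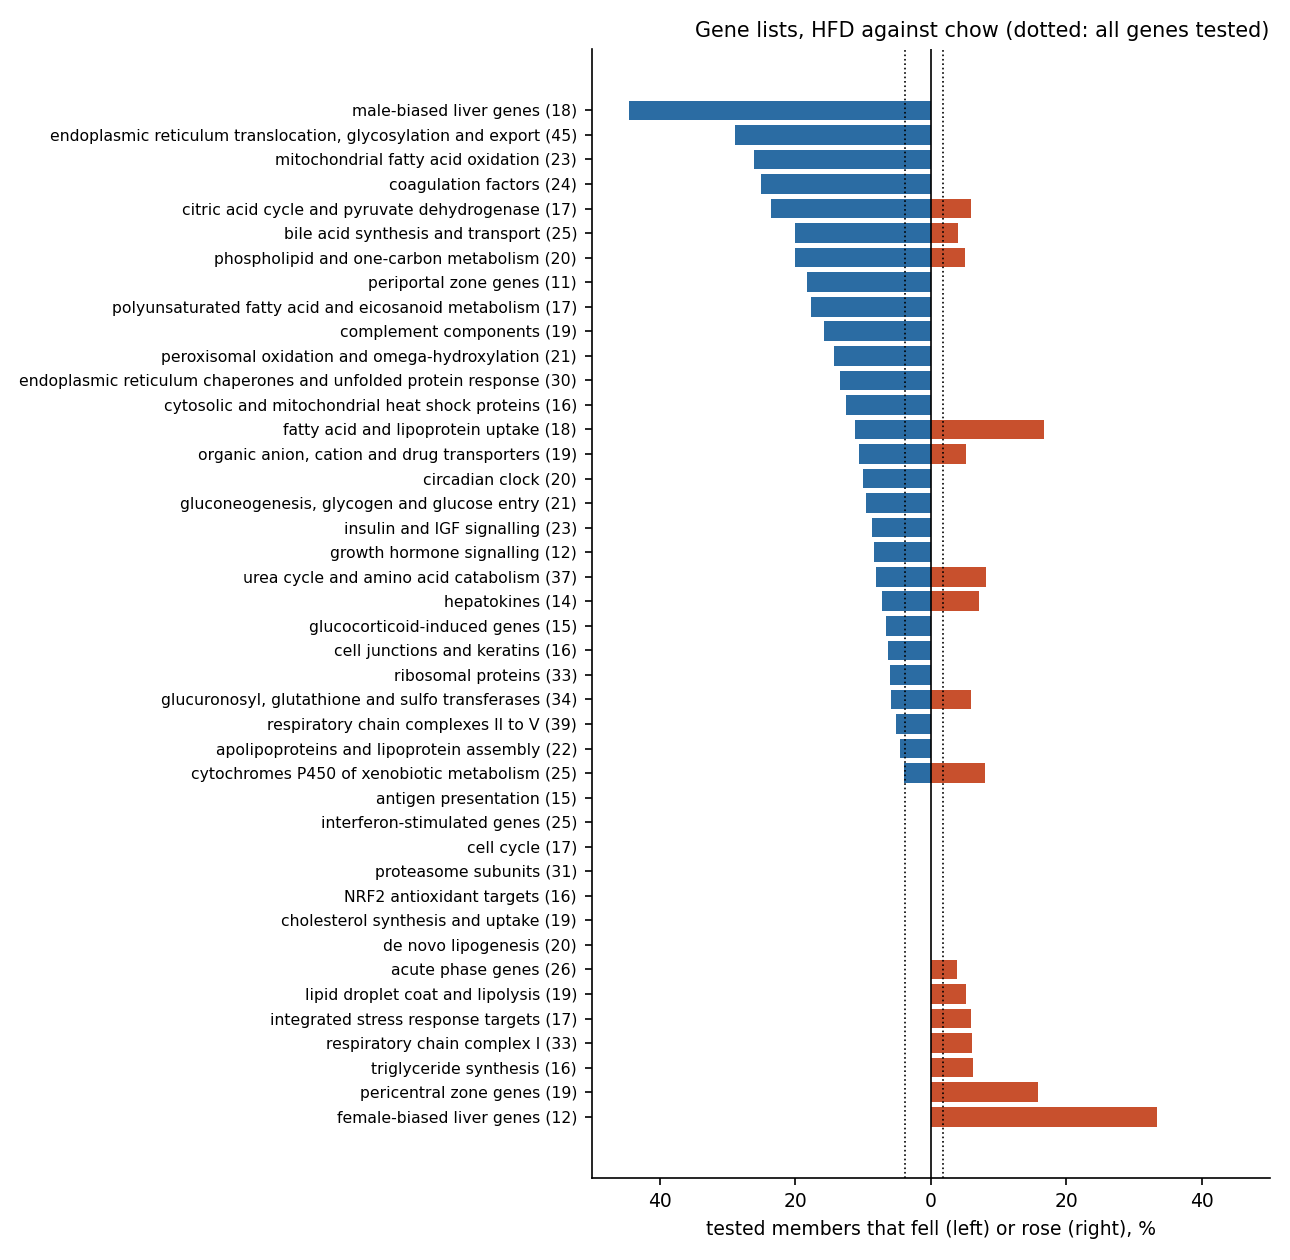
Share of the tested members of each gene list (number in brackets) that fell (left) or rose (right) at an adjusted p under 0.05, with dotted lines at the 3.83% and 1.74% of all genes tested. Male-biased genes (8 of 18) and ER translocation and export (13 of 45) hold the largest shares of falls, and female-biased genes (4 of 12) of rises.

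Genes of foreign compound metabolism moved in both directions. Within the Cyp2c family, Cyp2c38 read 8.09, 8.33 and 8.29 on chow and 10.07, 10.20 and 9.35 on HFD and rose by 1.64 ± 0.25 (adjusted p = 0.0105), and Cyp2c39 rose by 1.19 ± 0.28 (0.0297). Cyp2c68 read 11.74, 10.98 and 11.87 on chow and 9.74, 9.83 and 9.53 on HFD and fell by 1.83 ± 0.30 (0.012). Members of this family are similar in sequence, and how far their probe sets share transcripts was not tested. Gstm3 and Gstm4, glutathione transferases, rose by 1.95 ± 0.47 (0.0324) and 0.70 ± 0.15 (0.0244). HFD 3 read 6.80 for Gstm3, close to the 6.21 to 6.56 of chow, against 8.83 and 9.24 on HFD 1 and 2, and the mean of its probe sets was 1.1016. None of these 5 genes passed with the index as a covariate, with Cyp2c38 at 1.63 (adjusted p = 0.0715) and Gstm3 at 2.53 (0.108). None of 16 targets of NRF2, the antioxidant regulator, passed in limma (3 at an unadjusted p under 0.05), among them Nqo1 (0.40 ± 0.24, adjusted p = 0.331).

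No call was found in limma among 31 proteasome subunits (14 at an unadjusted p under 0.05), 25 interferon-stimulated genes (1), 17 cell cycle genes (5) or 25 genes of stellate cells and matrix (5). Of all 13228 genes tested, 3280 had an unadjusted p under 0.05.

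Zonation lists, which separate hepatocytes near the central vein from those near the portal vein, gave 3 rises in 19 pericentral genes and 2 falls in 11 periportal genes. These were 15.8% and 18.2% of the lists, against 1.74% of all genes tested that rose and 3.83% that fell. The other 16 pericentral and 9 periportal genes did not pass. Slc13a3, a dicarboxylate transporter, read 7.16, 6.72 and 6.24 on chow and 9.10, 9.25 and 7.82 on HFD and rose by 2.02 ± 0.42 (adjusted p = 0.0217). Rhbg, an ammonium transporter, read 6.54, 7.46 and 6.67 on chow and 8.25, 8.82 and 8.08 on HFD and rose by 1.49 ± 0.30 (0.0179). Slc1a4, a neutral amino acid transporter, rose by 0.78 ± 0.18 (0.03), or 0.40 as the mean of its probe sets. Cyp2e1, a pericentral cytochrome, stayed within 13.85 to 13.91 on all 6 arrays, and Glul, glutamine synthetase, read 11.83 to 12.14 on chow and 12.30 to 12.41 on HFD (0.35 ± 0.12, adjusted p = 0.0897). The other probe set of Glul gave -0.36. Cyp2f2, the periportal cytochrome, read 13.49, 13.19 and 13.44 on chow and 12.58, 12.43 and 12.34 on HFD, and its difference of -0.93 ± 0.14 (adjusted p = 0.00931) passed in 4 of 6 fits with an array left out. No gene of either list passed with the index as a covariate, where Slc13a3 gave 1.69 (adjusted p = 0.207) and Cyp2f2 -0.70 (0.0715).

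Markers of other liver cells were checked because a piece of liver holds more than hepatocytes, and in bulk RNA fewer cells of a type and less RNA per cell cannot be told apart. None of 21 markers of Kupffer cells and macrophages passed in limma (1 at an unadjusted p under 0.05). Their summed linear signal was 9899, 2475 and 3425 on chow and 11066, 5412 and 2230 on HFD, so it was high on array 1 of each group and overlapped. Of 8 platelet markers 2 rose, against 1.74% of all genes tested, with sums of 328, 340 and 386 on chow and 610, 404 and 431 on HFD. Ppbp, a platelet chemokine, read 3.79, 3.29 and 4.29 on chow and 6.68, 4.52 and 6.21 on HFD and rose by 2.01 ± 0.48 (adjusted p = 0.031). Its chow signals were dim, below the chow array medians of 4.48 to 4.53. Gp1bb rose by 0.31 ± 0.09 (0.049), and Itga2b, another platelet gene, overlapped (0.02 ± 0.12, adjusted p = 0.934).

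Of 18 sinusoidal endothelial markers 2 rose (11.1%, against 1.74% of all genes tested). They were Vwf, the von Willebrand factor (0.99 ± 0.20, adjusted p = 0.0179), and Stab2, a scavenger receptor (0.52 ± 0.14, 0.049). The chow signals of Vwf, 3.92 to 4.36, were dim, below the chow array medians of 4.48 to 4.53. The sums of that list were 3642, 2987 and 3534 on chow and 3637, 4277 and 4321 on HFD, overlapping. Themis, a T cell signalling protein, read 4.05, 4.08 and 4.40 on chow and 6.43, 6.58 and 4.77 on HFD and rose by 1.75 ± 0.36 (adjusted p = 0.0209). Its chow signals were below the same medians, and its other, dimmer probe sets gave -0.30, -0.16 and 0.33. Cd3e, a defining part of the T cell receptor complex, read 6.02 to 6.19 on chow and 6.10 to 6.28 on HFD, and 11 of 12 tested T and NK cell markers did not pass. Pancreatic acinar markers, which a liver should lack, summed to 302, 454 and 1300 on chow and to 330 or 331 on HFD, and none of 8 passed in limma (5 at an unadjusted p under 0.05). No gene of these marker lists passed with the index as a covariate. Their part in the results was not tested.

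The reversal model offers a second diet comparison from other arrays, with 6 weeks of HFD before 2 weeks of vehicle. There the 3' to 5' index ran the other way, 3.15 ± 0.566 on chow and 2.62 ± 0.969 on HFD (SD, n = 3 each, overlapping groups), and the deposited values of that model lie on a slightly higher level, so only differences within a model are set side by side. The HFD effect differed between models for 1452 genes in limma, being lower in prevention for 1169 (8.84% of those tested) and higher for 283 (2.14%). Of the 737 genes changed in prevention, 462 also differed from reversal. That contrast holds the same 6 prevention arrays that picked the 737, so this count is not a separate result. In reversal itself 287 genes rose and only 37 fell. Genes that rose in both models numbered 24, those that fell in both 3, and 9 fell in prevention and rose in reversal. With the index as a covariate 0 genes differed (1709 at an unadjusted p under 0.05), and without chow 1 of the prevention model 0 differed (3251 unadjusted).

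Several of the genes that rose in prevention rose in reversal too. Cyp2b9 rose by 3.68 in prevention and 5.19 in reversal, Cyp2b13 by 3.35 and 3.40, Cd36 by 2.25 and 3.22, Mogat1 by 1.59 and 2.64, and Cyp2c38 by 1.64 and 1.90, and the adjusted p of the difference lay between 0.102 and 0.98 for these 5 genes. Limd2 rose by 1.25 and 1.01. Others did not pass in reversal, where Slc27a4 gave 0.20, Vldlr 0.93 and Plin4 0.86, and Fmo2 gave -0.49, which differed from prevention (adjusted p = 0.0194).

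Of the genes that fell in prevention, Fmn2, an actin-nucleating formin, fell by 1.85 there and by 2.02 in reversal (adjusted p = 0.0201). C4bp fell by 0.60 in prevention and rose by 0.97 in reversal (adjusted p of the difference 0.0163). In reversal, Cpt1a gave 0.05, Hadhb 0.20, Elovl2 -0.21, Pnpla7 -0.19 and C6 -0.24, each different from prevention with an adjusted p of 0.0183 to 0.0287. Slc16a1 gave -0.57, which differed as well (0.0405).

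The medians of both ER lists had opposite signs in the 2 models. In the list of translocation and export, 13 fell in prevention and 4 rose in reversal, with medians of -0.51 and 0.44, and 26 of 45 members differed between models, all lower in prevention. Chaperones had medians of -0.45 and 0.39, and 12 of 30 differed. Ddost fell by 0.45 in prevention and rose by 0.52 in reversal (adjusted p of the difference 0.0163). Hspa5 gave -0.86 and 0.39, Pdia6 -1.19 and 0.66, and Sec24d -1.40 and 0.50, with adjusted p of the difference of 0.0329, 0.0266 and 0.0188. The index was also higher on HFD in prevention and lower on HFD in reversal, and its part in this contrast was not tested beyond the covariate fit, in which no gene differed.

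**Figure D5:**
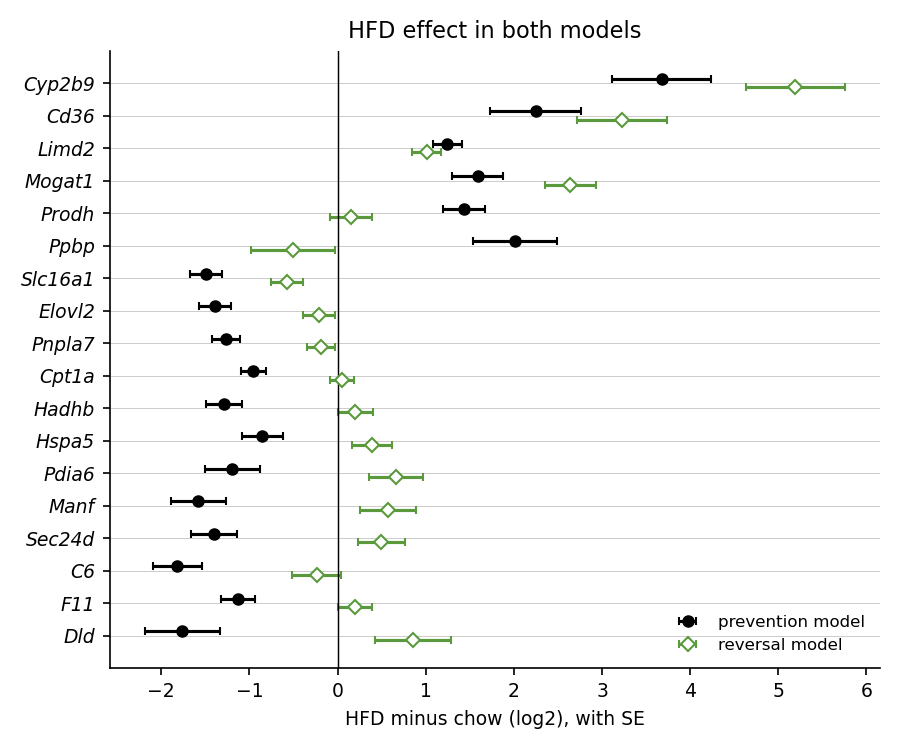
HFD minus chow (log2, horizontal axis) with its SE for 18 genes in the prevention model (filled circles) and the reversal model (open diamonds). Cyp2b9, Cd36, Limd2 and Mogat1 lie above 0 in both, while Hspa5, Pdia6, Manf and Sec24d lie below 0 in prevention and above 0 in reversal.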

How the data were processed

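Total liver RNA was hybridised to Affymetrix mouse arrays. The authors deposited log2 values, made per the submitters' processing notes with Affymetrix Expression Console 1.1 and RMA, which corrects background, equalises the arrays and sums up the probes of each probe set; loss of RNA ends lowers probe sets far from the 3' end. Probe sets were named from the platform table. Of 45101 probe sets, the 40% with the lowest mean were dropped, and each gene was its brightest probe set with 1 symbol (13228 genes). Means of a gene's probe sets take only those left after this filter. One limma 3.58.1 model in R 4.3.3 held 6 group means over 17 samples (2 near-identical CMPF arrays were averaged), with 11 residual degrees of freedom and Benjamini-Hochberg adjustment, and was tested on simulated data. Group means here come from their own arrays. The members, gene lists and rules were chosen with earlier results of these data known. Named genes were the 15 largest changes per direction without overlap, up to 6 passing members and the key members of each list, genes passing every leave-out or the index covariate, and 5 per direction for the difference between models. Arrays give no depth; their number limits the precision.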

Additional observations from a re-analysis of the deposited data

Results flagged for a closer look

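The groups hold 3 arrays each, too few for a test of single arrays. The HFD effects of the 19 genes given here differed between the prevention and the reversal model in limma, written as prevention minus reversal (log2). Of clock genes, Bhlhe40, a repressor, gave -2.10 (adjusted p of the difference 0.0163) and Arntl, the activator BMAL1, gave 1.23 (0.0173). Neither passed within prevention. C4bp gave -1.57, C6 -1.58, Gpr146, a receptor that acts on plasma cholesterol, -1.73, Coq10b, a coenzyme Q binding protein, -1.39, Cdv3 -1.13 and Cyp2c68 -1.84. Lower in prevention as well were Prr16 at -3.03, Scfd1, a vesicle fusion factor, at -2.82, Dld at -2.61, Gnpnat1, an enzyme of amino sugar synthesis, at -2.41 and Eif3m, a translation factor, at -2.39. Higher in prevention were Ppbp at 2.52, Rmnd1 at 2.12, Ccdc141 at 1.84, Id4, an inhibitor of helix-loop-helix factors, at 1.12, Gnb4, a G protein subunit, at 1.07 and Helq, a DNA helicase, at 0.888. The 3' to 5' index differed between chow and HFD by 1.42 in prevention and by -0.529 in reversal, and with the index as a covariate no gene differed.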

How the results depend on the processing

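The 737 genes changed by HFD became 278 with only the arrays of the groups compared, 1151 with the prevention arrays only, 401 with the replicate number as a block, 17 with the index as a covariate, 2021 with array weights, 2 without chow 1 and 3, and 8 to 1624 with 1 array left out. The 1452 genes that differed between models became 0 with the index, 2797 with array weights and 0 to 2400 with 1 array left out. The other alternatives stayed within 1.5 times. Cyclic loess moved the split of rises and falls from 230 and 507 to 333 and 408, and that of the model difference from 283 and 1169 to 461 and 676 (quantile normalisation, 512 and 651). As the mean of the probe sets left after the filter on dim ones, Saa4 became -0.183, Sec24a 0.12 and Slco1b2 -1.22. The index difference was 1.36 for Gapdh, 1.48 for beta-actin and 1.19 to 1.69 with 1 array left out. Of 126 named genes that passed, 13 kept their call with the index, 77 under the block, 59 with only the groups compared, and 9, 123, 7, 15, 34 and 57 without chow 1, 2 and 3 and HFD 1, 2 and 3. Same-numbered arrays had deviations correlated at 0.442, -0.176 and -0.0546 across genes, against -0.384 to 0.395 for arrays of different numbers. With 3 arrays a group, these values cannot decide whether the numbers pair samples. The causes were not tested.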

Other observations

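Several gene groups varied more within a diet group than between the groups. Antigen-presenting class II genes followed the macrophage markers. H2-Ab1 read 10.23 on chow 1 and 10.43 on HFD 1, against 6.44 to 7.60 on the other 4 arrays, and Cd74, the invariant chain, read 8.58 and 8.92 against 6.26 to 6.85. Vsig4, a Kupffer cell receptor, read 9.72 on chow 1 and 8.78 on HFD 1 and 6.77 to 8.09 elsewhere. No gene of these lists passed between diets.

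Inducible heat shock genes set chow 1 apart. Hspa1a read 6.72 on chow 1 and 10.19 to 11.41 on the other 5 arrays, and Hspa1b read 10.68 against 12.58 to 13.30. Some acute phase genes were far lower on HFD 3 than on HFD 1 and 2. Lcn2, lipocalin 2, read 7.77, 5.47 and 5.12 on chow and 8.92, 9.15 and 4.31 on HFD, and Orm2, an orosomucoid, read 7.40, 6.22 and 6.33 against 8.75, 8.96 and 5.48. Saa4, the called member of that list, read 12.68, 12.96 and 12.43 on HFD, and Hamp, hepcidin, was highest on HFD 3 at 12.27 against 11.19 and 11.70. Pancreatic Cela2a, an elastase, read 7.72 on chow 3 and 4.07 to 5.36 on the other 5 arrays.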
